A study of Mus musculus with 8 samples.

Results

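The comparison described here set 2 libraries of mouse embryos labelled CX45 against 2 libraries labelled CX22, which made up 4 of the 8 libraries of the study. It took every gene with enough signal, 11832 of the 24732 genes in the table. All embryos were of the C57BL/6 strain, and the labels gave no genotype, agent, dose or age for any group. The labels did not spell out CX22 or CX45 and named no control, so the groups are called by these names throughout. The remaining 4 libraries were labelled 2C and 8C, read here as the 2-cell and 8-cell stages, and their difference is given below for comparison. A gene written as rising or falling was higher or lower in CX45 than in CX22 or in 8C than in 2C, and no order in time is implied for the CX groups. The title of the series concerned transcription by RNA polymerase I and the folding of chromatin in embryos. The assay was Smart-seq, a way to amplify whole cDNA molecules from traces of RNA. Its levels came as FPKM, that is fragments per kilobase of a transcript scaled by the total of its library. FPKM are relative to the RNA of a library, so fewer or more RNA molecules per embryo cannot be told apart from a change in makeup. It was not stated whether the 2 libraries of a group came from separate embryos or pools, so p-values speak only of the spread among the libraries at hand, which may be technical.

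As background, a mouse embryo starts on RNA that the oocyte stored. Much of this maternal RNA is destroyed after fertilization while the embryo's own genome is switched on, first in a short burst of transient genes and then in a lasting wave. That lasting wave is rich in genes for ribosomes, protein turnover and mitochondria. RNA polymerase I works in the nucleolus and makes the long precursor of ribosomal RNA, which ribosomal proteins and assembly factors turn into ribosomes.

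The CX45 embryos had less oocyte RNA than the CX22 embryos and more RNA for ribosomes, proteasomes and mitochondria, and most of the called genes that were also called between 2C and 8C moved the same way there. Genes were called with limma where the p adjusted by Benjamini and Hochberg over all genes tested was under 0.05, with a log2 fold change of at least 1 in either direction, on log2(FPKM + 1), a scale that understates changes of low genes. Of 11832 genes, 4332 (36.6%) were called, 2735 higher in CX45 (23.1%) and 1597 lower (13.5%). In each called gene both CX45 libraries lay on the same side of both CX22 libraries. Such a separation, called or not, held for 41.5% of all genes upward and 23.5% downward. Among the called genes 63.1% were higher, but this split depended on scaling: it was 49.2% after quantile normalization (2015 higher, 2084 lower) and 54.6% after centring each library on its median (2290 higher, 1907 lower). The median gene stood 0.47 log2 units higher in CX45, and 0.06 or 0.20 under those scalings, so medians of gene groups are read against that shift. Fitted on the 4 CX libraries alone, 2562 genes were called (1671 higher, 14.1%, and 891 lower, 7.53%), of which 2531 were called in the same direction in the fit of all groups. The count was 2442 and 2536 without CX45 replicate 1 or 2, 2543 and 2531 without 8C replicate 1 or 2, and 4609 and 4362 without CX22 replicate 1 or 2. The 8C libraries enter because all groups share 1 estimate of the spread. Without a CX45 or 8C library, calls over all genes were thus fewer. Counts of gene lists in those fits, given below, are to be read with that general loss and not against 23.1% or 13.5%.

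The CX22 libraries were the most uneven pair of the study. Over the genes tested the log2 levels of the 2 CX22 libraries correlated with r = 0.819, against 0.928 for the CX45 pair and 0.58 to 0.628 between CX22 and CX45 libraries, across genes that are no independent replicates. Genes with over 10 FPKM in 1 library of a group but 0 in its partner numbered 284 in CX22, 41 in CX45, 14 in 8C and 5 in 2C. The table gives no counts, but low FPKM move in steps of whole fragments, and from these the CX22 libraries held about 9.74 and 12.06 M (1e6) and the CX45 libraries 11.02 and 12.68 M fragments. At that depth 3 fragments on 2 kb of transcript are worth 0.118 to 0.154 FPKM. Genes at 1 FPKM or more numbered 7469 to 8174 in the CX22 libraries and 9042 to 9441 in the CX45 libraries. Of the called genes, 708 were listed at 0 in both libraries of a CX group: 585 of the genes higher in CX45 and 123 of the lower. A listed 0 need not mean absence: Gapdh, a glycolysis gene active in nearly every cell, stood at 0.241 and 0.519 FPKM in CX22 and at 0.0712 and 0 FPKM in CX45. It was no higher than 0.519 FPKM in any library. Further genes active in most cells were listed at 0 in no library and were higher in CX45. Actb went from 75.1 and 39.3 to 407 and 560 FPKM, and Hprt from 485 and 603 to 2030 and 1779 FPKM. Ppia went from 131 and 240 to 1776 and 3084 FPKM, and Tbp from 18.3 and 17.1 to 60.8 and 65.6 FPKM. These genes were looked up after the data were seen. Leaving out the genes at 0 in a CX group moved the median log2 change over all genes to 0.38, that of mitochondrial ribosomal proteins from 2.51 to 2.44 and that of the Bcl2 family from 1.04 to 0.91.

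**Figure D1:**
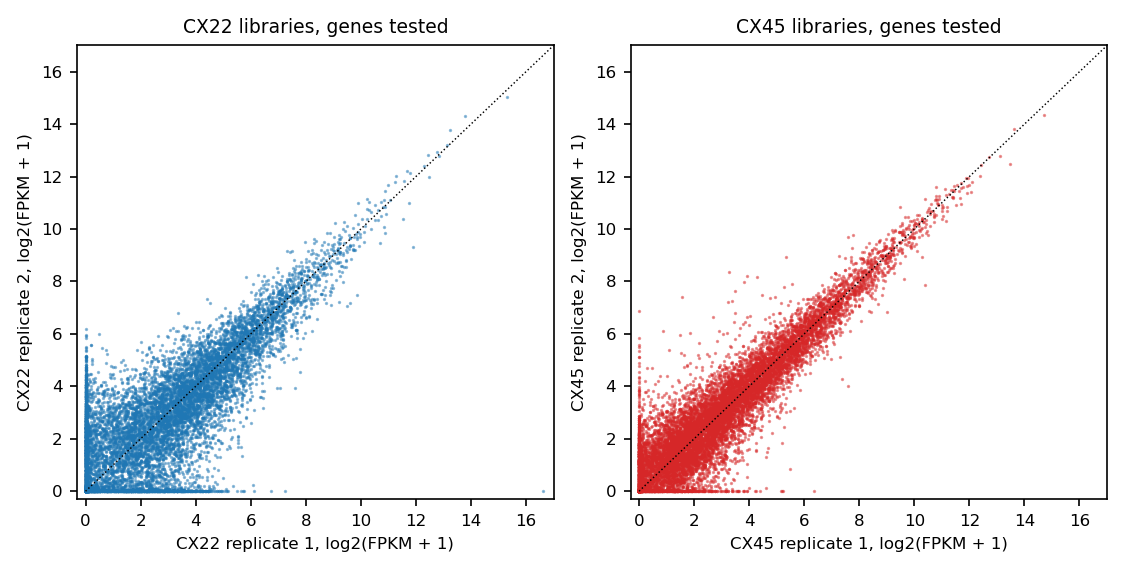
Level of each tested gene in replicate 1 (horizontal axis) against replicate 2 (vertical axis) of CX22 (left) and CX45 (right), as log2(FPKM + 1), with 1 point per gene and a dotted line of equality. The CX22 points scatter more widely (r = 0.819) than the CX45 points (r = 0.928), and more of them lie on the axes, where a gene is listed at 0 in 1 library.

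The promoters of 4 genes are printed here because the genes stand for the main groups below: a ribosomal protein gene and an RNA polymerase I factor gene that were higher in CX45, an oocyte gene that was lower, and a gene that went against the 2C to 8C direction. Each is the 250 bases before the RefSeq start on build GRCm38.p6, read on the coding strand. Capitals mark the motifs searched on both strands, each of which also occurs in many other promoters. The motifs were CCGGAAG (an ETS factor core), GGGCGG (GC box), CACGTG (E-box), CCAAT, TGACGTCA (cAMP response element) and TATAAA. They were chosen after the data were seen.
Rps6, chr4:86857368-86857617, minus strand: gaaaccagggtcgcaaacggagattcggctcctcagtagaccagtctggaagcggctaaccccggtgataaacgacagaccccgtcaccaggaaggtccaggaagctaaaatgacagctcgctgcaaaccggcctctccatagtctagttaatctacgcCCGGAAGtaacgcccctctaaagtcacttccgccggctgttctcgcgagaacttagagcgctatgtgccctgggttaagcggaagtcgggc
Rrn3, chr16:13780449-13780698, plus strand: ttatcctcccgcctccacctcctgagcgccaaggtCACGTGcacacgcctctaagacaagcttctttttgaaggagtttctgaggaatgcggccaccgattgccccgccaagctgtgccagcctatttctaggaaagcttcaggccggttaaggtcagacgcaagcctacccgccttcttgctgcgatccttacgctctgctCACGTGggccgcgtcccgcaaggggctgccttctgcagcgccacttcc
Bmp15, chrX:6320725-6320974, minus strand: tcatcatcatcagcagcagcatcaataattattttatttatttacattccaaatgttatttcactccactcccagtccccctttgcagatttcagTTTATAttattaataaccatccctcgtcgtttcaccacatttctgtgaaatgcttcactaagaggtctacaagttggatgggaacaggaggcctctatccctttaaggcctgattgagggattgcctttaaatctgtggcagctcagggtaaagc
Btg2, chr1:134079156-134079405, minus strand: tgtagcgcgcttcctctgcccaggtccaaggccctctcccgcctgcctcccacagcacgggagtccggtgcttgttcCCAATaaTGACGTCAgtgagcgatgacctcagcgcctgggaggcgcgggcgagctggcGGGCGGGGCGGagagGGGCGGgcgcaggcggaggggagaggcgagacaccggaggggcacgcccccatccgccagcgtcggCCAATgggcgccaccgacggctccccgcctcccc
Rps6 held the ETS core at base -91 from the start and Rrn3 held E-boxes at -215 and -48. Bmp15 held the TATA letters on the opposite strand at -155. Btg2 held 3 GC boxes (2 of them overlapping), a CCAAT box at each of -173 and -34 and a cAMP response element at -166. To check the start, bases just after it were looked for in annotated transcripts of the gene. They were held by 1 transcript of Rps6 and 1 of Bmp15 but by 0 of Rrn3 and 0 of Btg2. Motif positions in Rrn3 and Btg2 are thus less certain.

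Over whole promoters of 300 bases (250 before and 50 after the start, 80.5% of the tested genes matched), the ETS core occurred in 24.1% of promoters of genes higher in CX45 and 11.6% of those lower, against 17.3% over all genes tested and 8.9% over all promoters. The E-box occurred in 12.2% and 7.3%, against 1198 of 11970 promoters of genes tested and 7.2% of all promoters. The GC box was nearly level at 60.8% and 56.2% (58.7% over the genes tested, 35.7% over all promoters), as were the CCAAT box at 38.2% and 39.1% (39.4% and 37.4%) and the TATA letters at 8.5% and 8.8% (8.4% and 13.6%). The cAMP response element occurred in 3.9% and 2.6% (3.2% and 1.8%). A match is a description of letters and not a site. These shares carry no test.

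Ribosome production stood out as a set of genes that rose together. Rrn3 (mm9 chr16:13780792-13814934) encodes TIF-IA, the factor that makes RNA polymerase I competent to start, and it stood at 41.9 and 27.9 FPKM in the CX22 libraries and 278 and 264 FPKM in the CX45 libraries. The CX45 libraries were thus far above the CX22 libraries with no overlap (log2 fold change 2.95, SE 0.25, adjusted p = 0.00441), and near the 8C libraries at 354 and 329.9 FPKM. The list of the RNA polymerase I machinery held 20 tested genes, among them Polr2h and Polr2l, which are also in the RNA polymerase II list. Of the 20, 12 were called higher and 0 lower (60.0%, against 23.1% of all genes), and the median log2 change was 2.35 against 0.47 over all genes. The fits without 1 of the CX45 or 8C libraries called 7 to 9. Polr1b, the second largest subunit, stood at 0.256 and 0.9504 FPKM in the CX22 libraries and 11.9 and 16.9 FPKM in the CX45 libraries (log2 fold change 3.28, SE 0.43, adjusted p = 0.00789). Polr1c, which RNA polymerases I and III share, stood at 18.7 and 18.2 FPKM in the CX22 libraries and 137 and 120.3 FPKM in the CX45 libraries (log2 fold change 2.73). Ubtf, the factor that keeps ribosomal RNA genes open, was at 0.584 and 3.73 FPKM in CX22 and 15.6 and 16.5 FPKM in CX45. Its CX22 libraries were far apart, and the call (adjusted p = 0.0295) was lost without either CX45 library, without either 8C library and in the fit of the CX libraries alone. Polr1a, the largest subunit, did not pass (1.86 and 0.0135 FPKM in CX22, 5.18 and 6.41 FPKM in CX45, adjusted p = 0.0629), with CX22 replicate 1 well above replicate 2.

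Cytosolic ribosomal proteins rose almost as a body, with 92.0% called higher against 23.1% of all genes. Of 87 tested genes 80 were called higher and 1 lower (Rps27l, a ribosomal protein-like gene that is also a p53 target), with a median log2 change of 3.25. Genes named in brackets after a count, here and below, were named because the count was small, after their values were seen. Rps6, a protein of the small subunit, stood at 87.8 and 108 FPKM in the CX22 libraries and 1151 and 999 FPKM in the CX45 libraries, with both pairs close together and the groups far apart (log2 fold change 3.45, SE 0.20, adjusted p = 0.00322). It was chosen for its promoter after its values were seen. Its 2C libraries were lower still, at 21.2 and 23.6 FPKM. Rpl31, of the large subunit, stood at 46.9 and 40.1 FPKM in the CX22 libraries and 719 and 704 FPKM in the CX45 libraries (log2 fold change 4.0), and Rps4x at 101 and 86.9 FPKM in the CX22 libraries and 1033 and 1188 FPKM in the CX45 libraries (3.55). In both the replicates were close and the groups far apart. Levels of these genes are uncertain where reads were split with their many processed pseudogenes. Of 13 RNA polymerase II subunit genes, with Polr2h and Polr2l of the RNA polymerase I list among them, 6 were higher (46.2%) and 1 lower (7.69%; Polr2g). Of 21 RNA polymerase III genes 8 were higher (38.1%) and 0 lower, where 23.1% and 13.5% of all genes were. The medians were 1.65 and 1.86. Without 1 of the CX45 or 8C libraries these counts of higher genes were 2 to 4 and 4 to 6.

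Assembly factors, which trim ribosomal RNA and fit the proteins onto it, followed, with 73.5% called higher against 23.1% of all genes. Of 132 tested genes 97 were called higher and 0 lower (median 2.38), and 56 to 64 were called higher in the fits without 1 of the CX45 or 8C libraries. Fbl, the methyltransferase of box C/D particles, stood at 1.85 and 3.21 FPKM in the CX22 libraries and 50.6 and 46.01 FPKM in the CX45 libraries (log2 fold change 3.83, SE 0.30, adjusted p = 0.00387). Nop16, an assembly factor of the large subunit, stood at 38.4 and 35.5 FPKM in the CX22 libraries and 499.8 and 511 FPKM in the CX45 libraries (log2 fold change 3.74). Gnl2, a nucleolar GTPase, was at 3.44 and 3.37 FPKM in the CX22 libraries and 46.3 and 49.01 FPKM in the CX45 libraries. Each of these 3 genes kept a clear gap between its groups. Utp23 was at 10.9 and 9.77 FPKM in the CX22 libraries and 139.9 and 133 FPKM in the CX45 libraries against 53.6 and 44.95 in 8C, and it was the only member of the 132 whose CX change was called higher than its 2C to 8C change (by 2.47 log2 units, adjusted p = 0.0375). Nol7 went from 0 in both CX22 libraries to 98.4 and 97.1 FPKM, and it was listed at 0 in both 2C libraries too. Npm1, the abundant nucleolar chaperone nucleophosmin, stood at 649.5 and 538 FPKM in the CX22 libraries and 2192 and 2915 FPKM in the CX45 libraries (log2 fold change 2.09). Ncl (nucleolin) was at 31.7 and 14.9 FPKM in the CX22 libraries and 74.5 and 101 FPKM in the CX45 libraries, a call (adjusted p = 0.0233) that was lost without either CX45 library, without either 8C library and in the fit of the CX libraries alone. Of 14 exosome genes, whose complex degrades and trims RNA, 8 were higher (4 to 5 without 1 of the CX45 or 8C libraries) and 1 was lower. The 8 higher genes were 57.1% of the exosome list, against 23.1% of all genes. The lower gene, Mphosph6, fell from 9746 and 14145 to 322 and 451 FPKM.

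**Figure D2:**
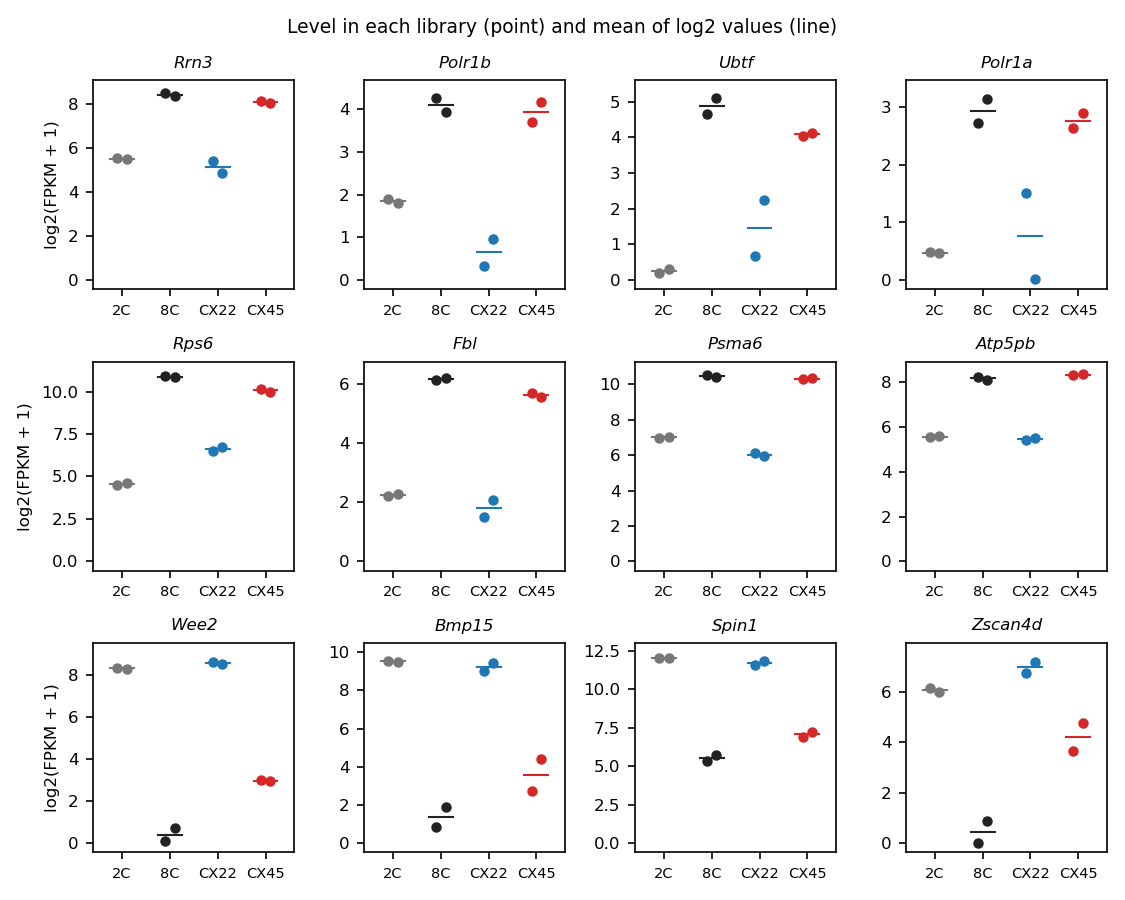
Level of 12 genes in each library as log2(FPKM + 1), with 2C in grey, 8C in black, CX22 in blue and CX45 in red, points for libraries and a line for their mean on the log scale. Rrn3, Polr1b, Rps6, Fbl, Psma6 and Atp5pb are high in CX45 with no overlap with CX22, Ubtf and Polr1a have spread CX22 libraries, and Wee2, Bmp15, Spin1 and Zscan4d are lower in CX45 than in CX22 while still above 8C.

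Translation and splicing genes rose beside them. Called higher were 59.3% of initiation factor, 38.1% of synthetase and 58.2% of splicing genes, against 23.1% of all genes. Of 54 translation initiation factor genes 32 were higher and 3 lower (Eif2ak4, Eif4e3 and Eif4enif1), with a median of 1.98. Eif2s1, the alpha subunit of eIF2 and the target of the stress kinases, went from 23.2 and 21.8 to 350.0 and 398 FPKM (log2 fold change 3.99, SE 0.18, adjusted p = 0.00322). Of 21 aminoacyl-tRNA synthetase genes 8 were higher and 0 lower (median 2.06), and of 67 splicing genes 39 were higher and 1 lower (Lsm7; median 1.62). Sf3b1, a core protein of the U2 particle, went from 39.5 and 35.7 to 164 and 155 FPKM (log2 fold change 2.06). Both CX groups of Sf3b1 were tight. Without 1 of the CX45 or 8C libraries, 16 to 21 initiation factor genes, 2 to 4 synthetase genes and 11 to 20 splicing genes were called higher.

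Protein turnover and mitochondrial genes were the other large groups that rose. Called higher were 70.2% of proteasome, 57.1% of respiratory chain, 63.7% of mitochondrial ribosomal and 70.4% of mitochondrial import genes, against 23.1% of all genes. Of 47 proteasome genes 33 were higher and 0 lower (median 2.80). Psma6, an alpha subunit of the core particle, stood at 67.4 and 61.2 FPKM in the CX22 libraries and 1250.2 and 1314 FPKM in the CX45 libraries, with tight replicates in both groups (log2 fold change 4.30, SE 0.18, adjusted p = 0.00322). Psma4, a further alpha subunit, went from 9.98 and 7.24 to 345 and 448 FPKM. Psmg3, a proteasome assembly chaperone, was listed at 0 in both CX22 libraries and stood at 69.8 and 74.8 FPKM in CX45. Of 77 genes of the respiratory chain and ATP synthase 44 were higher and 0 lower (median 2.00). Atp5pb, of the stalk of ATP synthase, went from 41.9 and 44.5 to 316 and 327 FPKM (log2 fold change 2.87, SE 0.18, adjusted p = 0.00322), and Uqcrq, of complex III, from 41.05 and 41 to 611 and 520.2 FPKM. Ndufb7, of complex I, was uneven in CX22 (0.192 and 12.7 FPKM) and stood at 598 and 594 FPKM in CX45, and its call was lost without either CX45 library. Of 80 mitochondrial ribosomal protein genes 51 were higher and 1 lower (Mrps14; median 2.51), and of 27 import genes 19 were higher and 2 lower (Timm21 and Timm8b; median 2.92). Timm17a, of the inner membrane translocase, went from 74.9 and 121 to 2034 and 1644 FPKM. Without 1 of the CX45 or 8C libraries, 15 to 21 proteasome, 22 to 30 respiratory chain, 23 to 30 mitochondrial ribosomal and 11 to 15 import genes were called higher.

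**Figure D3:**
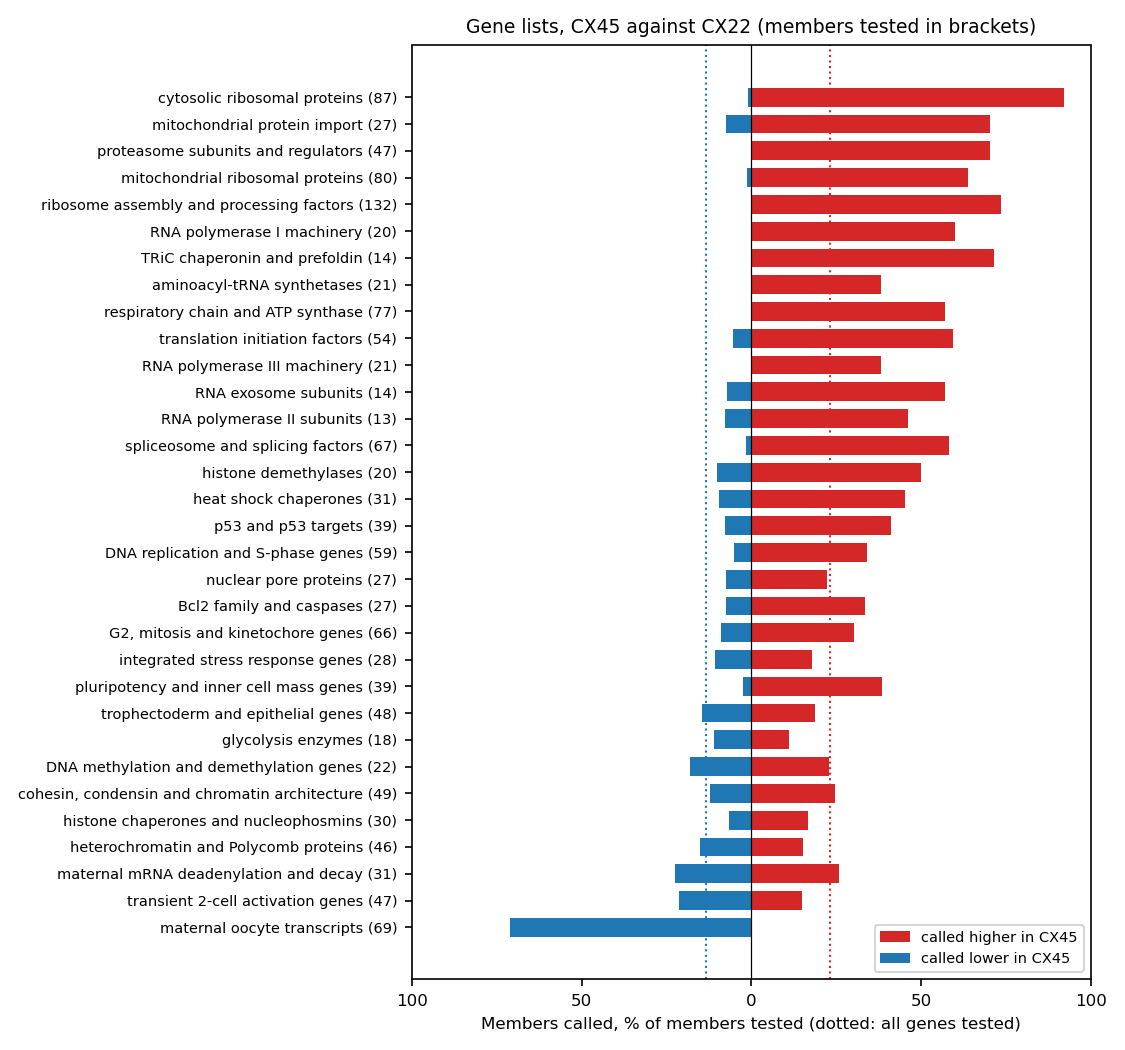
Share of the tested members of 32 gene lists called higher (red, to the right) or lower (blue, to the left) in CX45 than in CX22, in percent, ordered by the median log2 change, with the number of members tested in brackets. Dotted lines give the shares over all genes, 23.1% higher and 13.5% lower, and the longest bars are those of cytosolic ribosomal proteins on the right and maternal oocyte transcripts on the left.

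Of the 15 rises chosen for naming by the same limits as the falls below, the leading genes were nearly all at or close to 0 in CX22. Rbis, a factor of ribosome assembly, and Ak6, a nuclear adenylate kinase that acts in small-subunit assembly, were listed at 0 in both CX22 and both 2C libraries. They stood at 916 and 657 FPKM and 489 and 619.9 FPKM in the CX45 libraries, and no fold is given against 0. Znrd2 and Snapc3, the latter a subunit of the complex that starts small nuclear RNA genes, were likewise listed at 0 in both CX22 libraries and stood at 273 and 557 FPKM and 150.1 and 151 FPKM in CX45. Cst3, the protease inhibitor cystatin C, went from 0 and 0.415 to 275.3 and 297 FPKM (log2 fold change 7.91, SE 0.27, adjusted p = 0.00322). Pdcd6 went from 0 and 0.146 to 340.2 and 114 FPKM, with CX45 replicates that differed widely. Tbrg1, Ssr2 (a subunit of the translocon-associated complex), Lsm5 (of the U6 particle), Ndufa8 (of complex I) and Inka1 made up the further leading genes with log2 changes of 7.21, 7.14, 6.73, 6.62 and 6.57. Mif, a cytokine, went from 1.06 and 10.8 to 497 and 651 FPKM (log2 fold change 6.85), and lost its call without CX45 replicate 2.

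Oocyte transcripts fell. Of 69 tested maternal oocyte transcripts 49 were called lower and 0 higher (71.0%, against 13.5% of all genes), with a median log2 change of -2.85, and the fits without 1 of the CX45 or 8C libraries called 30 to 37 lower. Omt2a, an oocyte-specific gene, stood at 40419.8 and 33867 FPKM in the CX22 libraries and 579 and 808 FPKM in the CX45 libraries, and at 50.7 and 45.6 FPKM in 8C. Its groups were thus far apart (log2 fold change -5.75, SE 0.26, adjusted p = 0.00322), and its fall was 3.59 log2 units smaller than that from 2C to 8C (adjusted p = 0.0261). Bmp15, an oocyte growth factor gene (mm9 chrX:5891172-5897842), fell from 523 and 691 to 5.71 and 20.2 FPKM (log2 fold change -5.66, SE 0.68, adjusted p = 0.00673). Wee2, the oocyte kinase that holds meiosis in check and a member of the division list, fell from 400.1 and 364 to 6.95 and 6.71 FPKM with tight replicates (log2 fold change -5.61, SE 0.30, adjusted p = 0.00322). Spin1 (spindlin), an abundant oocyte protein, fell from 3036 and 3689 to 117 and 152 FPKM. Rfpl4, Oosp3, Tcl1b4 and Tcl1b3 were among the 15 falls chosen for naming, which leave out predicted, clone and RIKEN symbols and genes under 10 FPKM, with log2 changes of -5.92, -6.27, -6.44 and -5.92. The CX45 libraries of Tcl1b4 (0 and 33.8 FPKM) and Tcl1b3 (1.86 and 37.96 FPKM) were far apart, and both calls were lost without either CX22 library, without either 8C library and in the fit of the CX libraries alone. Dppa3 (Stella), a maternal factor that guards the maternal genome's methylation, did not pass: it stood at 14090.1 and 20344 FPKM in the CX22 libraries and 26937 and 20843 FPKM in the CX45 libraries, groups that did not overlap but were close (adjusted p = 0.362).

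The largest fall among the genes chosen for naming was that of Prl8a2, a gene of the prolactin family that is in none of the lists, from 361 and 398 to 0 and 4.63 FPKM (log2 fold change -7.32, SE 0.95, adjusted p = 0.00781). Cep41, a centrosomal protein gene, fell from 187 and 147 to 0.170 and 1.91 FPKM. Gtsf2, Fam229b, Tac2, Pate14, Pla2g4c and Sdhaf4 fell by between 6.47 (Gtsf2) and 5.59 (Sdhaf4) on the log2 scale. Among genes for the decay of maternal RNA, 8 of 31 were higher and 7 lower, 25.8% and 22.6% against 23.1% and 13.5% over all genes (without 1 of the CX45 or 8C libraries, 1 to 2 and 5 to 6). Their median log2 change of 0.10 turned to -0.26 under quantile normalization, -0.18 under median centring, -0.02 with a pseudocount of 5, -0.30 without CX22 replicate 1 and -0.48 without CX45 replicate 1. Cnot6l, a deadenylase subunit of the CCR4-NOT complex, fell from 77.99 and 126 to 7.25 and 9.62 FPKM, and Dcp2, the decapping enzyme, from 49.5 and 66.5 to 4.23 and 5.58 FPKM. Both thus lay lower in each CX45 library than in each CX22 library.

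The transient genes of early genome activation did not move as a body. Of 47 tested, 7 were higher and 10 lower, shares of 14.9% and 21.3% against 23.1% and 13.5% over all genes, and the median was -0.04, or 0.81 without CX45 replicate 1 and 0.01 with no filter. Without 1 of the CX45 or 8C libraries the counts were 4 to 7 and 5 to 10. Zscan4d, of a cluster switched on briefly in the 2-cell embryo, fell from 107 and 148 to 11.7 and 26.7 FPKM (log2 fold change -2.76, SE 0.54, adjusted p = 0.0188), a call lost without either CX22 library, without CX45 replicate 1 and with a pseudocount of 0.1. Obox2, a homeobox gene, fell from 33.1 and 49.1 to 0.820 and 1.60 FPKM. Dppa2 and Fbxo15, which the pluripotency list also holds, and Pramel6 rose, Dppa2 from 25.3 and 22.5 to 266 and 458 FPKM. Zfp352 did not pass (113 and 96.3 FPKM in the CX22 libraries and 20.9 and 179 FPKM in the CX45 libraries), and its CX45 libraries lay on both sides of the CX22 libraries. Tcstv1, chosen after its values were seen, had the same split at 18.3 and 289 FPKM in CX45, with CX45 replicate 2 the higher. Summed over the 52 matched members the list stood at 3161 and 6563 FPKM in the CX45 libraries and at 4121 and 5159.6 FPKM in CX22, so the CX45 libraries lay on both sides of CX22. Many of these genes belong to families of near-identical copies, and the split of reads between copies is uncertain.

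Genes of pluripotency and of the first lineages were next. Of 39 tested pluripotency and inner cell mass genes 15 were higher and 1 lower (Tcl1, which the maternal list also holds), a share of 38.5% higher against 23.1% over all genes, and the median was 0.60. In the fits without 1 of the CX45 or 8C libraries 10 were higher. Sox15, a factor related to Sox2, was listed at 0 in both CX22 libraries and stood at 211 and 244 FPKM in CX45. Dppa4, which acts with Dppa2 on early gene promoters, rose from 46.3 and 27.3 to 615 and 717 FPKM (log2 fold change 4.18, SE 0.31, adjusted p = 0.00386). Nanog rose from 0.307 and 0.207 to 6.53 and 4.54 FPKM, below 20.3 and 18.2 FPKM in 8C, a call lost with a pseudocount of 5. Neither Pou5f1 (0 and 2.32 FPKM in CX22 and 0 and 2.16 FPKM in CX45) nor Sox2 (0.373 and 0.435 FPKM in CX22 and 0.441 and 0 FPKM in CX45) passed, and the groups of both overlapped. Of 48 trophectoderm and epithelial genes 9 were higher and 7 lower, shares of 18.8% and 14.6% near those over all genes (3 to 6 higher and 4 to 5 lower without 1 of the CX45 or 8C libraries). Tead4, the transcription factor that starts the trophectoderm programme, rose from 0.277 and 0 to 14.5 and 17.7 FPKM, while Prkci and Pard3, of the apical polarity complex, fell by 2.83 and 3.21 on the log2 scale. Cdx2 was listed at 0 in all 8 libraries.

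Part of the p53 pathway rose. p53 is a transcription factor that halts the cell cycle or starts cell death under stress, and Mdm2 is its inhibitor and target. Of 39 tested members 16 were higher in CX45 and 3 lower (Mdm4, Rps27l and Rrm2b), 41.0% and 7.69% against 23.1% and 13.5% of all genes. From 2C to 8C 6 were higher and 10 lower, where 16.4% and 20.7% of all genes were. The median log2 change was 1.10 between the CX groups (0.47 over all genes) and -0.52 between the stages (-0.03 over all genes). Without 1 of the CX45 or 8C libraries 6 to 9 were called higher, and under quantile normalization 11. Whether the pathway differed between the comparisons was not tested as a list. Cdkn1a, the cell cycle inhibitor p21, stood at 18.5 and 11.4 FPKM in CX22 and 118 and 159.9 in CX45, with 2C at 12.05 and 11.7 and 8C at 68.3 and 77.4. It was higher in CX45 than in CX22 without overlap (log2 fold change 3.15, SE 0.32, adjusted p = 0.00554), and its change did not differ detectably from that between the stages (difference 0.64 log2 units, SE 0.51). Mdm2 stood at 46.8 and 51.96 FPKM in CX22 and 123 and 88.5 in CX45, with 2C at 23.9 and 25.2 and 8C at 9.18 and 12.2, so that both CX groups lay above both stages, and its call between the CX groups (adjusted p = 0.0414) was lost without any 1 CX or 8C library, under quantile normalization, median centring and several other settings. Ei24, a p53-induced gene of the endoplasmic reticulum, went from 10.2 and 12.2 to 44.97 and 55.6 FPKM (log2 fold change 2.07). Eda2r, a death receptor gene, and Phlda3, an inhibitor of Akt, both chosen after their values were seen, were listed at 0 in both CX22 libraries and stood at 19.7 and 23.6 FPKM and 5.01 and 13.3 FPKM in CX45. Mdm4, an inhibitor of p53, fell from 622 and 837 to 88.9 and 117 FPKM. Trp53 itself did not pass (10.3 and 8.44 FPKM in CX22 and 9.02 and 12.1 FPKM in CX45).

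Apoptosis and stress response genes gave a mixed picture. Of 27 genes of the Bcl2 family and caspases 9 were higher and 2 lower (Bcl2l10 and Birc3), 33.3% and 7.41% against 23.1% and 13.5% over all genes, and the fits without 1 of the CX45 or 8C libraries called 5 higher. Casp6, an executioner caspase, was listed at 0 in both CX22 libraries and stood at 32.6 and 20.7 FPKM in CX45. Bcl2l10, an oocyte member of the Bcl2 family, fell from 401 and 734 to 11.7 and 23.4 FPKM. Of 28 integrated stress response genes 5 were higher (Asns, Eif4ebp1, Hspa5, Phgdh and Psph) and 3 lower (Mthfd2, Shmt2 and Slc7a11), shares of 17.9% and 10.7% near those over all genes (2 to 3 higher and 2 lower without 1 of the CX45 or 8C libraries). Atf4, the central factor of that response, was at 20.8 and 59.4 FPKM in the CX22 libraries and 71.6 and 89.2 FPKM in the CX45 libraries, with CX22 libraries far apart (adjusted p = 0.211). Ddit3 (CHOP) was at 175 and 75.02 FPKM in the CX22 libraries and 45.5 and 236 FPKM in the CX45 libraries, and its groups overlapped.

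Chromatin architecture genes, the theme of the series title, changed at shares near those over all genes. Of 49 tested genes of cohesin, condensin and related proteins 12 were higher (24.5%) and 6 lower (12.2%), with a median of 0.32, and 5 to 6 were higher and 2 to 3 lower without 1 of the CX45 or 8C libraries. Neither Ctcf, the insulator protein (43.9 and 61.2 FPKM in CX22 and 30.6 and 32.1 FPKM in CX45, adjusted p = 0.0953), nor Rad21, the cohesin ring's cleavable subunit (106 and 75.6 FPKM in CX22 and 117 and 96.6 FPKM in CX45, adjusted p = 0.489), passed. Hmgb3 rose from 71.9 and 70.3 to 251 and 242 FPKM (log2 fold change 1.78, SE 0.17, adjusted p = 0.00514), and Banf1, which bridges chromatin and the nuclear envelope, from 36.8 and 61.6 to 346 and 429 FPKM. Of 46 heterochromatin and Polycomb genes 7 were higher and 7 lower, 15.2% each way against 23.1% and 13.5% over all genes, or 1 to 2 and 3 to 5 without 1 of the CX45 or 8C libraries. Bmi1, of Polycomb complex 1, fell from 779 and 675 to 59.6 and 78.8 FPKM, and Suz12, of Polycomb complex 2, from 316 and 372 to 121 and 138 FPKM. Under quantile normalization the median of this list changed sign (0.27 to -0.05), as did those of DNA methylation genes (0.41 to -0.03) and histone chaperones (0.31 to -0.11).

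Genes of replication and division followed, to be read against 23.1% higher and 13.5% lower over all genes. Of 59 S-phase genes 20 were higher (33.9%) and 3 lower (Dbf4, Orc5 and Uhrf1), and of 66 genes of G2, mitosis and the kinetochore 20 were higher (30.3%) and 6 lower (3 to 4 lower without 1 of the CX45 or 8C libraries). In the same fits 7 to 10 S-phase and 5 to 9 division genes were higher. Tyms, which makes thymidylate, rose from 1.43 and 1.70 to 38.5 and 51.5 FPKM (log2 fold change 4.15, SE 0.29, adjusted p = 0.00355). Cenpm, a kinetochore protein gene, was listed at 0 in both CX22 libraries and stood at 39.5 and 40.7 FPKM in CX45.

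The change from CX22 to CX45 was set beside that from 2C to 8C. Between 2C and 8C, which share no library with the CX groups, 4382 genes (37.0%) were called, 1938 higher in 8C (16.4%) and 2444 lower (20.7%). That count was 1487 and 1411 without 8C replicate 1 or 2 and 6679 with the 8 libraries fitted as separate samples, and the shares below rest on it. Of the genes higher in CX45, 1480 were also higher in 8C, which was 54.1% of the former and 76.4% of the latter. Of the genes lower in CX45, 1268 were also lower in 8C, which was 79.4% of the former and 51.9% of the latter. Over the genes that rose from 2C to 8C, the CX change was a median of 0.80 of the stage change (0.77 to 0.83 over the pairs of CX libraries, quartiles 0.57 and 1.03). Over those that fell it was 0.53 (0.48 to 0.56, quartiles 0.08 and 0.76). The genes were picked by the stage change that is also the divisor, which favours low shares. The shares alone thus do not show that the CX change was smaller. These shares carry no test. Which of them was larger depended on scaling, since they were 0.63 and 0.66 after quantile normalization and 0.60 and 0.72 after median centring. The genes that fell had a median level of 15.3 FPKM in CX22 and 17.2 FPKM in 2C, and of 2.63 FPKM in CX45 and 0.517 FPKM in 8C.

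**Figure D4:**
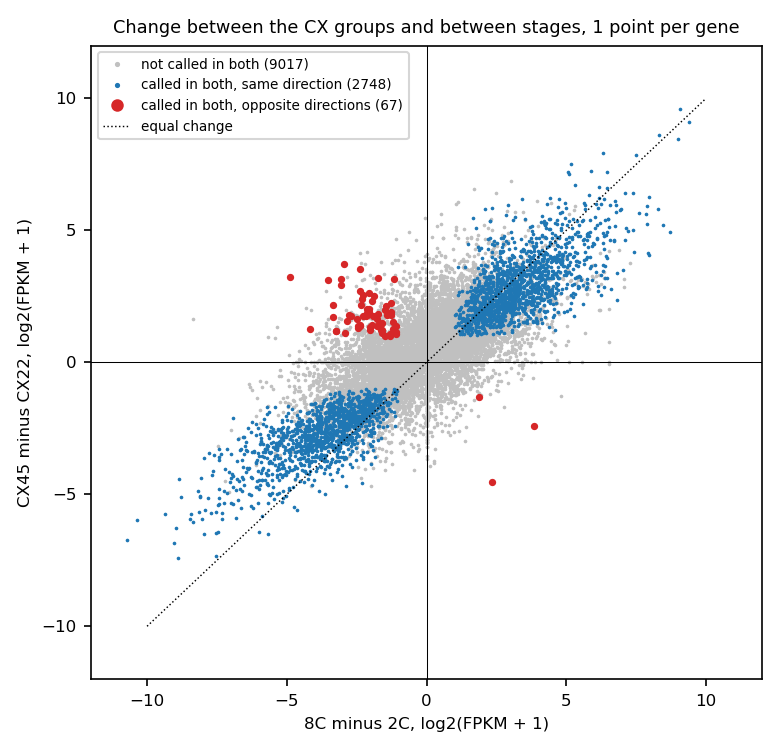
Log2 change from 2C to 8C (horizontal axis) against log2 change from CX22 to CX45 (vertical axis) for each of 11832 genes, with genes called in both and in the same direction in blue, genes called in both in opposite directions in red and all others in grey. Of the genes called in both, 2748 moved the same way and 67 in opposite ways, 64 of the latter lying in the upper left.

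A small set went the other way. Both comparisons called 67 genes (0.566%) in opposite directions, 64 higher in CX45 but lower in 8C and 3 lower in CX45 but higher in 8C (Shoc2, Ube2f and Mbd4). The 67 became 12 and 10 without 8C replicate 1 or 2, 14 without genes at 0 in both libraries of a CX group, 15 with a pseudocount of 5, 36 with no filter, 23 after median centring and 28 after quantile normalization. They became 124 without CX22 replicate 2, 104 without CX45 replicate 1 and 141 with 8 separate libraries. For 53 of them (0.448%) the difference between the changes was also called, a test that uses the same libraries and so is no separate support. Over the 64 genes the median was 0 FPKM in CX22 and 2.64 in CX45, as against 5.50 in 2C and 0.423 in 8C. In all 64 both CX22 libraries lay below both 2C libraries, and in 61 both CX45 libraries lay above both 8C libraries. Of the 64, 39 were listed at 0 in both CX22 libraries. The count of 53 was 0 without either 8C library, without genes listed at 0 in both libraries of a CX group, and after quantile normalization or median centring.

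Of the 67, 9 met the limits for naming, with 10 FPKM or more in the higher CX group and no predicted symbol. Left out for predicted symbols were Gm2694 (184 and 257 FPKM in CX45) and Gm5512 (44.6 and 25.2 FPKM in CX45). Btg2, an antiproliferative gene and p53 target (mm9 chr1:135971442-135975732), stood at 0.862 and 0.188 FPKM in CX22 and 12.01 and 21.4 in CX45, with 2C at 5.21 and 5.66 and 8C at 0.0726 and 0.448. CX45 was thus the highest of the 4 groups and CX22 near the floor (log2 fold change 3.52, SE 0.49, adjusted p = 0.00901; difference from the stage change 5.89, adjusted p = 0.0341). Gas2, a growth arrest gene (mm9 chr7:59117385-59249831), was at 0 and 0 FPKM in CX22 and 6.09 and 23.3 in CX45, with 2C at 7.22 and 6.54 and 8C at 0 and 0.0225. Zfp639, a zinc finger gene (mm9 chr3:32409472-32419755), stood at 13.1 and 10.9 FPKM in CX22 and 102 and 53.8 in CX45, with 2C at 61.3 and 63.1 and 8C at 12.6 and 11.7, so that CX22 was close to 8C and the CX45 libraries lay on both sides of 2C. Tubb5, a beta tubulin gene (mm9 chr17:35970865-35975246), was at 42.5 and 33.5 FPKM in CX22 and 96.3 and 132 in CX45, with 2C at 61.7 and 61.1 and 8C at 6.39 and 9.002. Bet1, a SNARE of transport from the endoplasmic reticulum to the Golgi (mm9 chr6:4026899-4036930), was at 19.3 and 21.1 FPKM in CX22 and 66.6 and 53.4 in CX45, with 2C at 105 and 103 and 8C at 46.1 and 42.5, with CX22 the lowest group. Mlf1 (mm9 chr3:67178019-67203922) was at 4.95 and 11.8 FPKM in CX22 and 45.8 and 31.6 in CX45, with 2C at 73.9 and 73.9 and 8C at 8.83 and 4.64. Dnaja3, a mitochondrial chaperone gene (mm9 chr16:4684070-4707693), was at 6.35 and 6.57 FPKM in CX22 and 13.3 and 14.7 in CX45, with 2C at 27.6 and 28.4 and 8C at 11.7 and 9.91. Its rise was the smallest of the 7 (log2 fold change 1.01) and was not called in the difference (adjusted p = 0.0706). In the opposite sense, Shoc2, a scaffold of Ras signalling (mm9 chr19:54018796-54107768), was listed at 0 in both libraries of 2C and of CX45 and stood at 19.1 and 25.6 FPKM in CX22 and 4.67 and 3.61 FPKM in 8C. Ube2f, which conjugates NEDD8 (mm9 chr1:93146881-93183098), was at 12.4 and 11.1 FPKM in CX22 and 1.99 and 0.926 in CX45, with 2C at 0.133 and 0 and 8C at 16.03 and 12.5. The calls of Gas2, Mlf1, Dnaja3 and Ube2f were lost in the fit of the CX libraries alone, and those of Tubb5 without either CX45 library or CX22 replicate 2, while Btg2, Zfp639 and Bet1 kept theirs in each alternative run. Shoc2 kept its call in those that tested it, all but the one without genes at 0 in both libraries of a CX group.

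**Figure D5:**
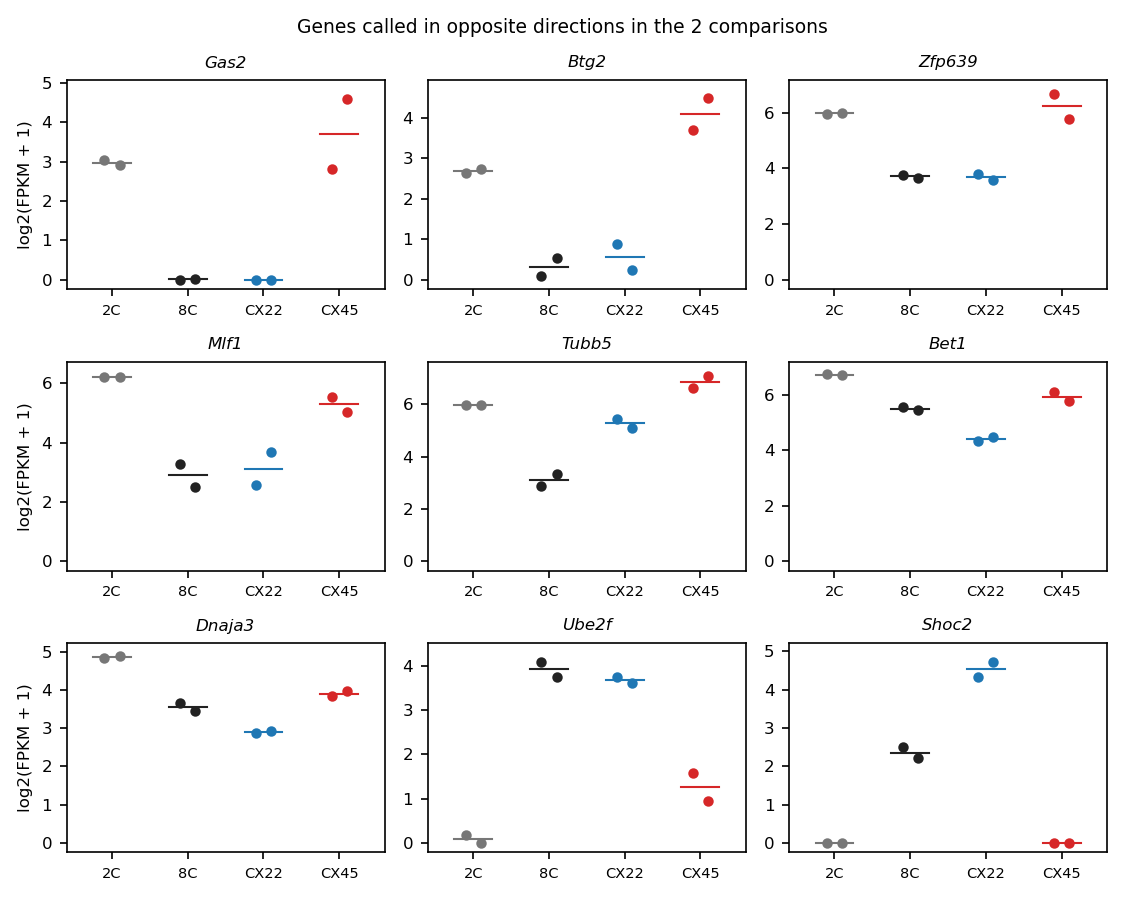
Level in each library, as log2(FPKM + 1), of 9 genes called in opposite directions that reached 10 FPKM in the higher CX group. Genes with predicted symbols are left out. Points are grey for 2C, black for 8C, blue for CX22 and red for CX45, with a line for each mean. Gas2, Btg2, Zfp639, Mlf1, Tubb5, Bet1 and Dnaja3 fall from 2C to 8C and rise from CX22 to CX45, and Ube2f and Shoc2 do the reverse.

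Differences in size between the changes were called for 419 genes (3.54%), 372 with the CX change higher (3.14%) and 47 with it lower (0.397%). Of the 372, 261 had fallen from 2C to 8C without a call between CX22 and CX45. Arg2, an arginase gene, was among the 261 but, unlike the median of the 372, was measured in both CX groups. It stood at 16.8 and 10.9 FPKM in CX22 and 8.00 and 10.4 in CX45, with 2C at 38.99 and 37.7 and 8C at 0 and 0. The CX groups of Arg2 were thus close and 8C was listed at 0 (limma adjusted p of the difference = 0.0322). Upk3a, Aamdc, Txndc12, Nme4, Dnajc19 and Smim20 rose between the CX groups from near 0 and were not called between the stages, Nme4, a mitochondrial nucleoside diphosphate kinase gene, at 0.118 and 0.0957 FPKM in CX22 and 60.02 and 78.9 in CX45, with 2C at 6.46 and 4.51 and 8C at 11.9 and 12.7. Among the 47 were genes listed at or near 0 in 2C but measured in CX22. Diablo, the mitochondrial antagonist of apoptosis inhibitors, stood at 24.6 and 37.4 FPKM in CX22 and 51.7 and 53.5 in CX45, with 2C at 0 and 0 and 8C at 71.6 and 119. Eif2b3, a subunit of the eIF2 exchange factor, was at 2.76 and 2.97 FPKM in CX22 and 52.5 and 85.5 in CX45, with 2C at 0.107 and 0 and 8C at 235 and 272, so it rose in both comparisons but less between the CX groups. Mrpl20, a mitochondrial ribosomal protein gene, was at 7.33 and 5.77 FPKM in CX22 and 298 and 249.6 in CX45, with 2C at 0.0736 and 0.0689 and 8C at 396 and 362. Among ribosomal proteins 5 of 87 rose less between the CX groups than between stages (Rpl10l, Rpl5, Rpl6, Rps15 and Rps6), and among p53 genes 4 of 39 had the higher CX change (Btg2, Fas, Polk and Trp53inp1). With either 8C library left out, or after quantile normalization or median centring, 0 differences were called by limma at the adjusted threshold, while 1584 to 2089 genes had an unadjusted p under 0.05 there, against 2399 in the fit with all libraries.

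Summed markers of other cell types differed between the CX groups. Few of these markers were tested gene by gene, and over all genes 23.1% were called higher. Blood and immune markers summed to 33.8 and 92.3 FPKM in CX22 and 327 and 393 FPKM in CX45 (26.1 to 37.7 in 8C and 114 in each 2C library), mostly from Hba-a1, a haemoglobin gene, at 23.6 and 71.2 FPKM in CX22 and 286 and 347 FPKM in CX45. Of 5 tested, 3 were called higher (Cd52, Cd74 and Hba-a1), and 0 without either CX45 library. Cumulus cell markers summed to 5.22 and 8.24 FPKM in CX22 and 0.197 and 1.71 FPKM in CX45, with 10 to 13 of 15 members at 0 in each CX library. Their sums were 9.85 and 10.6 FPKM in 2C and 0.687 and 0.0308 FPKM in 8C. Sperm transcripts summed to 42.9 and 33.9 FPKM in CX22 and 0 and 4.96 FPKM in CX45, with 6 to 10 of 10 members at 0. The only member at 10 FPKM or more was Tnp1 in CX22 replicate 1 but Prm2 in CX22 replicate 2. Sums of the sperm transcripts were 20.8 and 19.4 FPKM in 2C and 0 and 0.495 FPKM in 8C. Fibroblast markers summed to 4.28 to 5.61 FPKM in CX22 and 8.29 to 9.41 FPKM in CX45, with 5 to 7 of 10 members at 0, and Vim was called higher. The part of such cells in the gene groups above was not tested.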

How the data were processed

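The authors deposited 1 table of FPKM per transcript entry for all 8 libraries; HISAT2 4.8.2, Cufflinks 2.2.1 and build mm9 are named in the submitters' processing notes, and whether strand was used is not given in the sources used here. Per the labels' protocols, amplified Smart-seq cDNA was sequenced on a BGISEQ500. Of 41876 entries 41685 matched a gene by RefSeq accession, and entries were summed per gene; the 191 others held 0.065% to 0.253% of summed FPKM. Genes that reached 1 FPKM in 2 or more libraries were fitted with limma 3.58.1 (R 4.3.3, trend) on log2(FPKM + 1). Over 4982 genes with 1 entry each, the 2C libraries differed near the sampling noise (median squared scaled difference 1.35 times that of chance). Genes with more entries were not in that check. Summed maternal oocyte transcripts stood at 160571 FPKM in 2C replicate 1 and 79510 in replicate 2. The 2C libraries count as 1 sample, so the fit had 7 samples and 3 residual degrees of freedom. All p-values are two-sided. In 114 genes the 8C, CX22 and CX45 libraries had no spread.

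Named genes were the 15 highest and 15 lowest called genes (10 FPKM or more in the higher group, no overlap, no predicted, clone, RIKEN or pseudogene symbols), up to 10 in each direction among opposite calls, 8 in each direction of the difference, up to 4 per list by smallest p, and a fixed set led by Polr1a. The members and lists were chosen with earlier results of these data known. The fit was also run on simulated data, with Gaussian noise set by level and alike in all groups. That noise lacked the uneven spread of the CX22 libraries, so the run gives no measure of error in these data. Alternatives covered pseudocount, filter, scaling, fit and libraries left out.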

Additional observations from a re-analysis of the deposited data

Results flagged for a closer look

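For 31 named genes the change from CX22 to CX45 differed from that from 2C to 8C by limma's test of the difference at the adjusted threshold, given as a difference of changes on the log2(FPKM + 1) scale, which depends on the pseudocount where a group is listed at 0. The CX change was the higher for Gas2 (6.68), Upk3a (6.54), Btg2 (5.89), Aamdc (5.53), Mlf1 (5.49), Txndc12 (5.01), Nme4 (4.94), Dnajc19 (4.92), Inka1 (4.86), Obox7 (4.85), Zfp639 (4.8), Arg2 (4.78), Smim20 (4.77), Tubb5 (4.42), Omt2a (3.59), Eno1 (3.47), Mrps6 (3.0), Bet1 (2.73), Utp23 (2.47) and Eif1ad (2.38). It was the lower for Shoc2 (-6.89), Ube2f (-6.24), Diablo (-5.77), Lactb2 (-4.57), Pate7 (-4.03), Eif2b3 (-3.78), Stambpl1 (-3.56), Chek2 (-3.38), Mrpl20 (-3.28), Isy1 (-3.28) and Rps15 (-2.40). With either 8C library left out, none of these differences passed. No group had the 4 samples that a check for single outlying libraries needs.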

How the results depend on the processing

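No call of a named gene reversed in the alternatives run, but the majority of higher calls, the medians of 5 lists of 10 or more genes and the order of the shares of the stage change did, as given with them above. CX45 against CX22 called 4332 genes, 2562 in the fit of the CX libraries alone and 2442 to 4609 with 1 library left out, fewest without CX45 replicate 1. The differences between changes, 419 genes, numbered 206 with a pseudocount of 5, 106 with a filter of 5 FPKM, 1770 with 8 separate libraries, 0 to 1095 with 1 library left out (1095 without CX22 replicate 2, 636 without CX22 replicate 1, 0 without either 8C library), and 0 under quantile normalization, median centring, no trend and robust variances. They were also 0 without genes listed at 0 in both libraries of a CX group, an alternative chosen after seeing the data. Opposite calls with a called difference, 53 genes, numbered 12 with a pseudocount of 5, 33 with no filter, 26 with a filter of 5 FPKM, 141 with 8 separate libraries, 0 to 115 with 1 library left out (115 without CX22 replicate 2, 84 without CX45 replicate 1), and 0 in the 5 settings with 0 differences named above. The cause of these moves was not tested. The share of the stage change was 0.80 for genes that rose: 0.82 with a filter of 5 FPKM, 0.63 by quantile, 0.60 by median centring, 0.77 without the genes at 0 and 0.73 to 0.83 with 1 library left out. For genes that fell it was 0.53: 0.64 with a pseudocount of 5, 0.59 with the filter and 0.59 without the genes at 0, 0.66 by quantile, 0.72 by median centring, 0.48 with 8 separate libraries and 0.45 to 0.58 with 1 library left out.

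Whether the replicate numbers pair the libraries is not known. With each gene weighed alike, deviations of same-numbered libraries correlated at -0.001 to 0.108 (0.041 for CX22 and CX45). Such a correlation can miss a gap in a few abundant genes. Summed maternal oocyte transcripts were higher in replicate 1 than in replicate 2 of each group. They stood at 160571 and 79510 FPKM in 2C, 172996 and 81590 in CX22, 25370 and 19076 in 8C and 29406 and 24426 in CX45. With the replicate number as a block over 8 separate libraries, 5323 genes were called between the CX groups, 1327 differences, 132 opposite calls, and a share of 0.48 for genes that fell, close to the 8 separate libraries without the block (5395 genes). Depth limits low genes: 3 fragments on a 2 kb transcript come to 0.118 to 0.154 FPKM in the CX libraries.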

Other observations

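Of 14 genes of the TRiC chaperonin and prefoldin, which fold actin, tubulin and other proteins, 10 were higher in CX45 (71.4%, against 23.1% of all genes) and 0 lower (median log2 change 2.14), and 8 were higher without 1 of the CX45 or 8C libraries. Of 31 heat shock chaperone genes 14 were higher (45.2%) and 3 lower (9.68%; Dnajb4, Hspa4l and Hspe1), and 7 to 13 were higher in those fits. Of 18 glycolysis genes 2 were higher (Eno1 and Pfkfb3) and 2 lower (Ldhb and Pfkp). That was 11.1% each way, against 23.1% and 13.5% over all genes. Part of the list was near the floor. Eno1 was listed at 0 in both CX22 libraries and stood at 3.10 and 2.70 FPKM in CX45. With a filter of 5 FPKM 12 were tested, 1 higher and 2 lower, and with a pseudocount of 5 the counts were 0 and 2. Histone demethylase genes, which remove methyl groups from histone tails, were higher in 10 of 20 and lower in 2 (Kdm6a and Kdm7a), but in 2 to 3 higher without 1 of the CX45 or 8C libraries. The share called higher was at or below the 23.1% over all genes in 3 further lists. Of 27 nuclear pore genes 6 were higher (22.2%) and 2 lower (7.41%; Nup50 and Nup62), with 1 to 4 higher in those fits. Of 30 histone chaperone genes 5 were higher (16.7%) and 2 lower (6.67%), and of 22 DNA methylation genes 5 were higher (22.7%) and 4 lower (18.2%), against 13.5% lower over all genes.

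Genes higher in CX45 lay in short loci and those lower in long ones: the median span in mm9 was 14199 bases for the higher, 39750 for the lower and 21173 over all genes tested. The share of genes called higher ranged over the chromosomes from 17.5% (chromosome 3) to 27.7% (chromosome 11). These values carry no test.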
